A study of Mus musculus with 9 samples.

Results

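Heat shock genes and genes of the unfolded protein response were followed through brain RNA of 9 mice in a study of intracerebral hemorrhage (ICH), bleeding of a vessel into brain tissue. The set holds 34 genes, found by name among the 38621 genes of the expression table, in 5 classes: 10 cytosolic chaperones, 2 mitochondrial chaperones, 12 chaperones and stress proteins of the endoplasmic reticulum (ER), 2 regulators, and 8 targets of the transcription factor ATF4. All mice were C57BL/6, with 3 in each group. The sham mice are labelled untreated, while the study's methods describe an injection of saline. The ICH mice had their own blood injected into the brain, as a model without a ruptured vessel. The feb mice received febuxostat by gavage, a gout drug that blocks xanthine oxidase, before the same injection of blood, so that they differed from the sham mice in both drug and blood. The dissected brain region and the time of sampling for RNA are not given in the sources used here. Levels are RPKM, the reads on a gene scaled to the length of its exons and to the reads counted in the library.

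Reads counted on genes ranged from 23065757 to 29538009 per mouse, and all 34 genes passed the filter on low values, which asked for 0.1 RPKM or more in 3 or more mice. Defining markers of brain cells were present in every mouse, with summed levels of 6 neuronal markers between 559 and 639 RPKM. Markers of brain regions and of choroid plexus varied between mice. The mean log2(RPKM + 0.1) of 6 striatal markers ran from 1.57 to 4.85 within the sham group, and 8 choroid plexus markers were lower in all feb mice, by 2.52 on this scale against the ICH group. Among 7 markers of infiltrating leukocytes, S100a8, Cd3e and Ly6g were at 0 in some mice, and the summed level of the list was at most 1.66 RPKM. In bulk tissue, fewer cells of a type and less RNA per cell cannot be told apart.

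Cells answer misfolded protein with separate programs for separate compartments. In the cytosol, heat shock factor HSF1 is released from chaperones and binds heat shock elements in the promoters of chaperone genes. In the ER, the sensors IRE1, PERK and ATF6 start the unfolded protein response: IRE1 splices Xbp1 mRNA, ATF6 is cut into a transcription factor, and both products act on ER chaperone genes through ER stress elements, while PERK slows translation and raises ATF4 protein, which acts on genes of amino acid supply, redox balance and cell death. ATF4 and XBP1 are controlled largely after transcription, by translation and by splicing, neither of which is read by an mRNA level.

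RefSeq promoters (GRCm38.p6) were found for 28 of the 34 genes and searched on both strands over the 250 bases before the start. The full ER stress element, CCAAT and CCACG with 9 bases between them, stood in 5 of the 10 ER chaperone promoters with sequence (Hspa5, Hsp90b1, Pdia6, Calr and Creld2) and in 0.13% of the promoters of all 27025 genes. The heat shock element, searched as GAANNTTC or TTCNNGAA, stood in 4 of 6 cytosolic chaperone promoters (Hspa1a, Hspa1b, Hspb1 and Hsph1), in those of Hspd1 and Hspe1, in 2 of 8 ATF4 target promoters (Atf5 and Asns), in 0 of 10 ER chaperone promoters, and in 14.5% of all promoters. The ATF4 composite element TGATGNAA stood in Chac1, Asns and Herpud1 and in 3.91% of all promoters. A match describes letters, not a bound site. Promoters of 3 ER chaperones with the full element are shown first, with both boxes of the element in capitals and bases that lie in exons removed. Creld2 encodes an ER stress protein (chr15:88819396-88819645, plus strand), Pdia6 a protein disulfide isomerase (chr12:17266339-17266544, plus strand), and Hsp90b1 the ER member of the HSP90 family (chr10:86705510-86705694, minus strand, which holds the element more than once).
Creld2: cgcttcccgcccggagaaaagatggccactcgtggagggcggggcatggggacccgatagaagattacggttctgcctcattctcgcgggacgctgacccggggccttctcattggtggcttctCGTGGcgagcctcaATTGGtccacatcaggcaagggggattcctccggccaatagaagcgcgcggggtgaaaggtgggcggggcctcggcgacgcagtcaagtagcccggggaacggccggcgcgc
Pdia6: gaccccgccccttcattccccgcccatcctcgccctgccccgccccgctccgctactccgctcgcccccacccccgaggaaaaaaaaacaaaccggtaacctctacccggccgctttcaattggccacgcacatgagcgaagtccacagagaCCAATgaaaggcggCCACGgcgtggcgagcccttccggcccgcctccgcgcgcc
Hsp90b1: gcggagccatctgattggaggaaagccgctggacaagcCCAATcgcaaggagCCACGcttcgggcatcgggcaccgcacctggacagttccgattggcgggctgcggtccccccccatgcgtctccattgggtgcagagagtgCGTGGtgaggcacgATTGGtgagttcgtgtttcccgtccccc
The next promoters belong to cytosolic chaperones, with heat shock elements in capitals. Hspa1a (chr17:34972157-34972406, minus strand) and Hspa1b (chr17:34959239-34959488, minus strand) encode the inducible HSP70 proteins and lie side by side, and their promoters differ at 3 of 250 bases. Hspb1 (chr5:135887669-135887918, plus strand) encodes a small heat shock protein, and it had the widest range between mice of all 34 genes.
Hspa1a: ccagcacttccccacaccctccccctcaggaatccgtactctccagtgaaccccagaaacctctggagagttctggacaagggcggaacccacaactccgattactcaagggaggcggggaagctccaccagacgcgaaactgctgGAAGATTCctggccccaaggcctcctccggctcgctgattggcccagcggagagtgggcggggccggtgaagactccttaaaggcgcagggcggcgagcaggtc
Hspa1b: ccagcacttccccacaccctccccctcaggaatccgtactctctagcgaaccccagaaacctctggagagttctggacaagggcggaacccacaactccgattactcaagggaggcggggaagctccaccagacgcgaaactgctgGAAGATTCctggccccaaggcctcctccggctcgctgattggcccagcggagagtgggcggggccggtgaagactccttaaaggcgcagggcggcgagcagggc
Hspb1: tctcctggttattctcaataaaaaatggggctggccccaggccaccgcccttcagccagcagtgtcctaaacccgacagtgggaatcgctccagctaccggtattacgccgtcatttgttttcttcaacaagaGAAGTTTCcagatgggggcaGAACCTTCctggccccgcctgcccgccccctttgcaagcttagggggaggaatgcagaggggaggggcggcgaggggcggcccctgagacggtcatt
The last promoter is that of Chac1 (chr2:119350992-119351228, plus strand), an enzyme that breaks down glutathione, with the ATF4 composite element in capitals on the opposite strand.
Chac1: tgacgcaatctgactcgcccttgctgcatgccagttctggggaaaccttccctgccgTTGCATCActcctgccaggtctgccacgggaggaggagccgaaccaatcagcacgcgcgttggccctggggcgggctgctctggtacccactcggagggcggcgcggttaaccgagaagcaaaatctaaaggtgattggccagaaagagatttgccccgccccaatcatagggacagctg

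Levels of the 34 genes spanned from 589 RPKM for Hsp90ab1 to 0.220 RPKM for Trib3, as means over 9 mice. Cytosolic chaperones that cells hold at all times led the set: Hsp90ab1 ranked 56th and Hspa8 (508 RPKM) 64th among the 29025 genes tested. The inducible HSP70 genes stood at 2.95 RPKM (Hspa1a) and 3.18 RPKM (Hspa1b). The plot of levels by mouse shows that the distance between genes was far larger than the distance between mice for almost every gene.

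**Figure D1:**
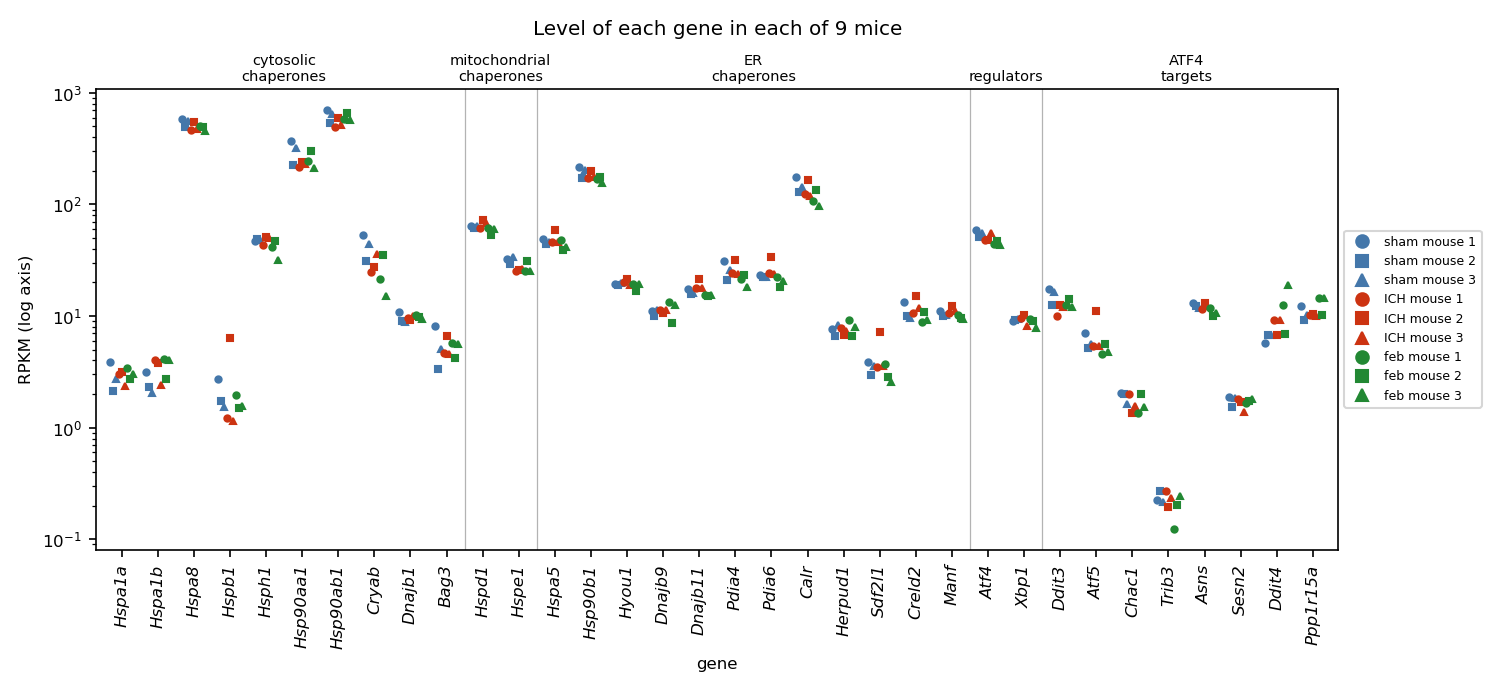
RPKM on a log axis for each of the 34 genes, grouped by class, with 1 point per mouse (colour for the group, shape for the mouse). The points of most genes lie close together. The widest spread is that of Hspb1, where ICH mouse 2 is at 6.31 RPKM and the other mice lie between 1.15 and 2.73. Ddit4, with feb mouse 3 the highest, and Cryab, with feb mouse 3 the lowest, are spread as well. ICH mouse 2 is also above all other mice for Sdf2l1 (7.14 RPKM) and Atf5 (11.0 RPKM), and Bag3 runs from 3.39 to 8.11 RPKM.

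In no comparison did any of the 34 genes reach a fold change over 2 with an unadjusted p under 0.05 (limma on log2(RPKM + 0.1), the study's thresholds for a call), and none had an adjusted p under 0.05. The lowest adjusted p of any of them was 0.352 for ICH against sham, 0.316 for feb against ICH and 0.565 for feb against sham. At an unadjusted p under 0.05, 9 of the 34 genes differed in at least 1 of the 3 comparisons. By comparison the counts were 3, 4 and 4 of 34, and the shares of all genes are given below for each comparison and direction. The share of all genes that differed in at least 1 of the 3 comparisons was not counted. The 9 therefore cannot be set beside the shares below. With 3 mice against 3, an exact two-sided permutation test of a single gene cannot go below 0.1.

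In ICH against sham, 1 of the 34 genes was higher and 2 were lower at an unadjusted p under 0.05, beside 7.88% higher and 4.42% lower among all genes tested. Calls by p and fold made up 2.53% of all genes and genes with an adjusted p under 0.05 0.0241%, against 0 of the 34. The groups did not overlap for 3 genes higher and 1 lower in ICH, where the shares of all genes were 13.2% and 6.22%. The median log2 difference of the 34 genes was 0.00 and that of all genes 0.08. The split of all genes at an unadjusted p under 0.05 depended on scaling. There, 2288 higher and 1282 lower became 1185 higher and 2037 lower after the mice were set to equal medians. The median of all genes, whatever their p, became -0.02. Counted by sign whatever their p, the 34 genes went from 17 higher and 17 lower to 8 higher and 26 lower. Their median became -0.11.

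In feb against ICH, 0 of the 34 genes were higher and 4 were lower at an unadjusted p under 0.05, beside 4.90% and 6.16% of all genes. By p and fold 2.43% of all genes were called, and 0.00689% had an adjusted p under 0.05. The groups did not overlap for 6 of the 34 genes lower in feb and for 0 higher, beside 10.1% lower and 7.04% higher among all genes. The median log2 difference was -0.12 for the 34 genes and -0.01 for all genes.

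In feb against sham, 1 of the 34 genes was higher and 3 were lower at an unadjusted p under 0.05, beside 5.63% and 2.90% of all genes. Calls by p and fold made up 2.20% of all genes, and 0.00345% had an adjusted p under 0.05. Without overlap, 1 of the 34 genes was higher and 4 were lower, where the shares of all genes were 7.78% and 4.90%. Lower values in feb were found for 27 of the 34 genes, with a median of -0.17, while the median of all genes was 0.05. Here too the split of all genes at an unadjusted p under 0.05 turned with scaling. It went from 1635 higher and 843 lower to 1042 higher and 1479 lower at equal medians. There the median of all genes, whatever their p, was -0.05. Counted by sign whatever their p, 31 of the 34 genes were lower at equal medians, with a median of -0.29.

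**Figure D2:**
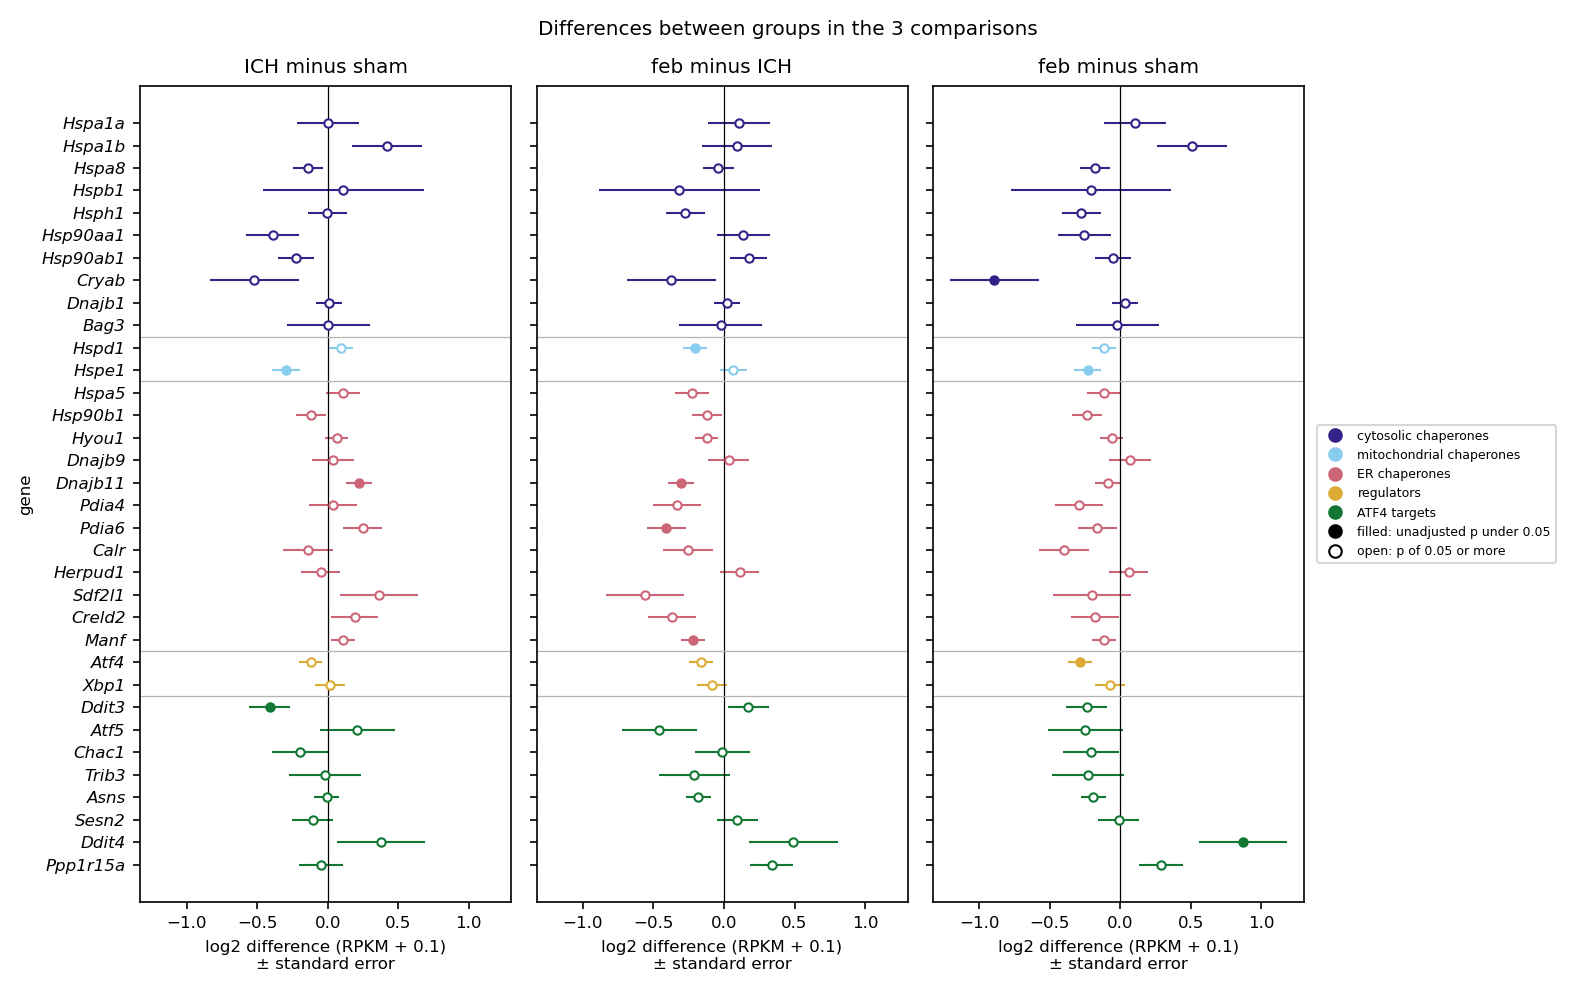
Log2 difference of each gene with its standard error for ICH minus sham, feb minus ICH and feb minus sham. Points are coloured by class and filled where the unadjusted p was under 0.05, which holds for 3, 4 and 4 genes, and 10 of the 12 ER chaperones lie left of 0 for feb minus ICH.

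A pair of mice stood apart from their groups in these genes. ICH mouse 2 was the highest of 9 mice in 13 of the 34 genes, among them 8 of the 12 ER chaperones. It was the highest in 16.2% of all genes tested, and in 18.5% of those with a mean of 1 RPKM or more. Sham mouse 1 was the highest in 14 genes, among them 7 of the 10 cytosolic chaperones, beside 11.3% and 13.7% in the same order. Against the other ICH mice, the median ER chaperone in ICH mouse 2 was 0.32 higher on the log2 scale, and against the other sham mice the median cytosolic chaperone in sham mouse 1 was 0.48 higher. ICH mouse 2 also had the highest means of astrocyte markers (6.32, beside 5.41 to 5.85 in the other mice) and of microglial markers (3.42, beside 2.21 to 2.996), and the lowest mean of thalamic markers (2.79, beside 3.82 to 5.23). Among the astrocyte markers, Gfap (573 RPKM, beside 54.5 to 160 RPKM in the other mice) and Aldh1l1 were highest in ICH mouse 2. Gja1 was lowest there (50.4 RPKM), and Slc1a2, Slc1a3 and Aqp4 were highest in other mice. The part of these markers in the results was not tested. At the other end, feb mouse 3 was the lowest of 9 mice in 12 of the 34 genes (9.99% of all genes tested) and feb mouse 2 in 8 (11.7% of all). Among genes with a mean of 1 RPKM or more, these shares were 12.2% and 15.2%. Of the 12 ER chaperones, 5 had their lowest value in feb mouse 3, 6 in feb mouse 2 and 1 in feb mouse 1.

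**Figure D3:**
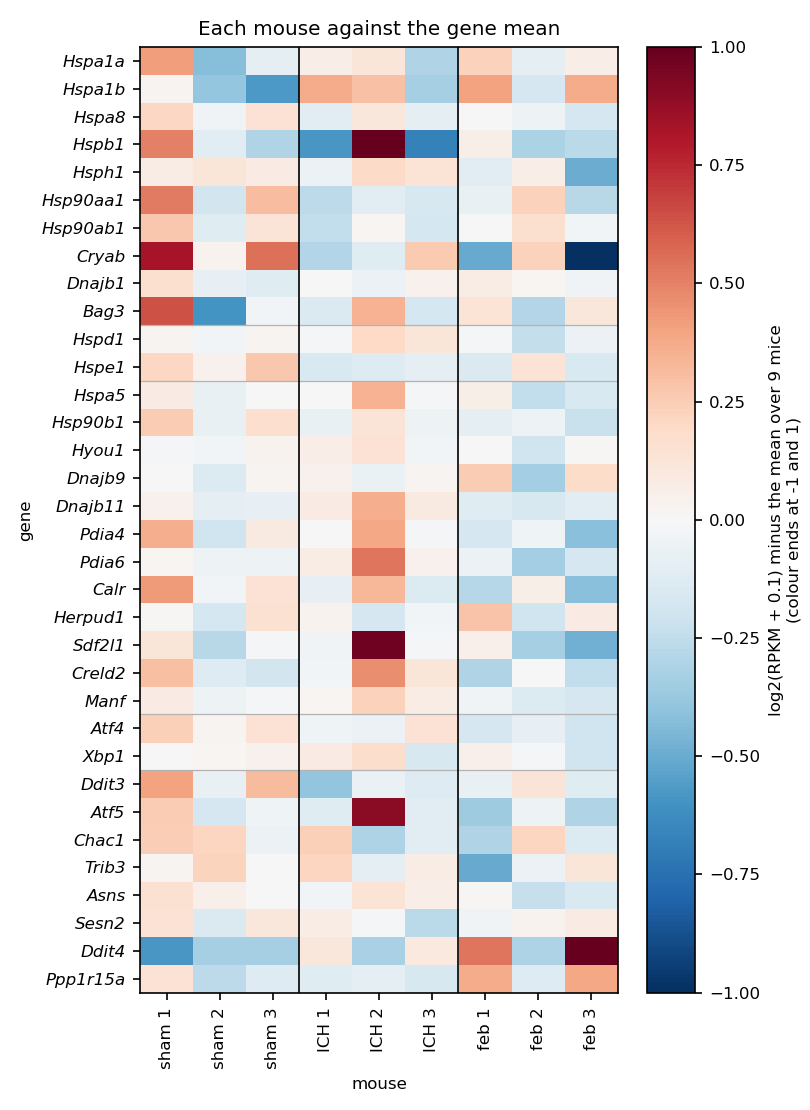
Heat map of log2(RPKM + 0.1) in each mouse minus the mean of the gene over all 9 mice, with genes in rows by class and mice in columns by group. Red fields gather in ICH mouse 2 over the ER chaperones, where 8 of 12 have their highest value, and in sham mouse 1 over the cytosolic chaperones, where 7 of 10 do.

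Among the cytosolic chaperones, none differed at an unadjusted p under 0.05 between ICH and sham or between feb and ICH. In feb against sham, 1 of 10 (Cryab) was lower, beside 2.90% of all genes. Hsp90ab1, the constitutive HSP90 and the most abundant gene of the class (chr17:45567775-45573271), was at 706, 537 and 640 RPKM in the sham mice, 494, 595 and 517 RPKM in the ICH mice, and 582, 653 and 576 RPKM in the feb mice. All groups overlapped, and the log2 differences were -0.22 ± 0.13 (SE) for ICH against sham and 0.18 ± 0.13 for feb against ICH. Its stress-inducible relative Hsp90aa1 was at 370, 228 and 321 RPKM in sham, 215, 240 and 232 RPKM in ICH, and 246, 303 and 214 RPKM in feb. Here sham mice 1 and 3 were above all others, sham mouse 2 was within the ICH range, and the ICH difference was -0.39 ± 0.19 (limma unadjusted p = 0.0689, adjusted p = 0.425). Without sham mouse 2, both passed an unadjusted p of 0.05 for ICH against sham (-0.59 for Hsp90aa1 and -0.33 for Hsp90ab1), as did Hsp90aa1 for feb against sham (-0.45), while without sham mouse 1 the ICH differences were -0.24 and -0.13. Hsp90aa1 also passed it for ICH against sham in voom on recovered reads (-0.39), and Hsp90ab1 turned to 0.02 with quantile normalization. Hspa8, the constitutive HSP70, ranged from 450 to 585 RPKM, with log2 differences between -0.18 and -0.04 in the 3 comparisons.

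Cryab encodes αB-crystallin, a small heat shock protein that is abundant in oligodendrocytes and astrocytes (chr9:50751325-50756636). Its levels were 53.4, 30.9 and 44.3 RPKM in sham, 24.6, 27.7 and 36.1 RPKM in ICH, and 21.3, 35.4 and 15.0 RPKM in feb. Feb mouse 2 lay within the sham range and feb mouse 3 was the lowest of all mice, so that feb and sham overlapped. The log2 difference of feb against sham was -0.89 ± 0.32 (limma unadjusted p = 0.0207, adjusted p = 0.565), the largest in size among the 34 genes in this comparison. It missed an unadjusted p of 0.05 without sham mouse 1 (-0.72), sham mouse 3 (-0.85), feb mouse 1 (-0.85) or feb mouse 3 (-0.61), and without feb mouse 2 feb against ICH passed it as well (-0.70, from -0.37). The mean of 6 oligodendrocyte markers took a similar order, at 6.78, 6.26 and 6.73 in sham, 6.04, 5.98 and 6.71 in ICH, and 6.25, 6.52 and 5.73 in feb. Their summed level ranged from 627 to 919 RPKM in sham, 506 to 877 RPKM in ICH and 496 to 791 RPKM in feb, and their part in the Cryab difference was not tested. The gene Hspb2, which overlaps 252 bases of the exons of Cryab on the opposite strand, was at most 0.284 RPKM.

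The inducible HSP70 genes were low. Hspa1b was at 3.15, 2.33 and 2.04 RPKM in sham, 4.01, 3.80 and 2.42 RPKM in ICH, and 4.11, 2.73 and 4.01 RPKM in feb, with a log2 difference of 0.42 ± 0.25 for ICH against sham and 0.51 ± 0.25 for feb against sham. The first of these passed an unadjusted p of 0.05 without ICH mouse 3 (0.64), and the second did so without sham mouse 1 (0.68) or feb mouse 2 (0.69). Its neighbour Hspa1a, with a nearly identical promoter, was at 3.91, 2.14 and 2.71 RPKM in sham, 3.06, 3.18 and 2.34 RPKM in ICH, and 3.42, 2.72 and 3.05 RPKM in feb, and its differences lay between 0.00 and 0.10. Windows of 150 bases shared with other transcripts covered 39.7% of Hspa1a and 40.5% of Hspa1b, so the division of reads between these copies is uncertain. Hspa1a also shares 564 exon bases with Gm20481 on the opposite strand, and whether counting used strand is not given.

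Hspb1 was at 2.73, 1.74 and 1.52 RPKM in sham, 1.23, 6.31 and 1.15 RPKM in ICH, and 1.98, 1.498 and 1.56 RPKM in feb. A single library, ICH mouse 2, held the highest value while the other ICH mice held the lowest values of all, and the ICH difference of 0.11 ± 0.57 did not pass the test. Without ICH mouse 2 the difference was -0.66, at an unadjusted p under 0.05. Of its windows, 39.1% are shared with the pseudogene Hsp25-ps1. Bag3, an HSP70 partner that steers clients to autophagy, ranged from 3.39 RPKM in sham mouse 2 to 8.11 RPKM in sham mouse 1, with differences between -0.02 and 0.00. Dnajb1, the cytosolic HSP40 that loads clients onto HSP70, was the steadiest of the class, from 8.85 to 10.8 RPKM. Hsph1, a nucleotide exchange factor of HSP70, was lower in each feb mouse (41.6, 47.2 and 31.98 RPKM) than in each sham mouse (47.5 to 49.0 RPKM), with a difference of -0.27 ± 0.14 (limma unadjusted p = 0.0747, adjusted p = 0.617). Without feb mouse 2 it passed an unadjusted p of 0.05 against sham (-0.40) and against ICH (-0.40).

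Hspd1 and Hspe1 encode HSP60 and HSP10, which together form the folding chamber of mitochondria, and they start from a shared stretch of chromosome 1 in opposite directions (chr1:55077835-55088243, minus strand, and chr1:55088132-55091307, plus strand). Hspe1 was at 32.5, 29.1 and 34.1 RPKM in sham, 25.4, 25.8 and 26.5 RPKM in ICH, and 25.5, 31.0 and 25.3 RPKM in feb. Every ICH mouse was below every sham mouse, and feb mouse 2 was within the sham range. The difference was -0.30 ± 0.10 for ICH against sham (limma unadjusted p = 0.0149, adjusted p = 0.352) and -0.23 ± 0.10 for feb against sham (limma unadjusted p = 0.0438, adjusted p = 0.583). The first missed an unadjusted p of 0.05 without sham mouse 3 (-0.25), and the second did so without sham mouse 1 (-0.21), sham mouse 3 (-0.18), feb mouse 1 (-0.19) or feb mouse 3 (-0.18).

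Hspd1 was at 64.1, 61.7 and 64.0 RPKM in sham, 62.0, 72.4 and 68.5 RPKM in ICH, and 62.0, 53.3 and 60.6 RPKM in feb, and all feb values were under all ICH values, though feb mouse 1 and ICH mouse 1 lay side by side. The difference of feb against ICH was -0.21 ± 0.08 (limma unadjusted p = 0.0391, adjusted p = 0.428), and that of ICH against sham was 0.09 ± 0.08. The former missed an unadjusted p of 0.05 without ICH mouse 2 (-0.16), ICH mouse 3 (-0.19) or feb mouse 2 (-0.14), and also at equal medians (-0.21), with upper-quartile scaling (-0.18), with only these groups in the fit and in eBayes without trend. The exons of both genes overlap by 112 bases, and 16.1% of the windows of Hspd1 and 6.64% of those of Hspe1 occur in other genes.

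The ER chaperones were higher in ICH than in sham for 9 of 12 genes, with a class mean higher by 0.09 that became -0.02 at equal medians, where 4 of 12 were higher, and -0.01 without ICH mouse 2. They were lower in feb than in ICH for 10 of 12. The medians of their log2 differences were 0.09 and -0.24, beside 0.08 and -0.01 for all genes. Of all 29025 genes, 17728 were higher in ICH than in sham and 15153 were lower in feb than in ICH. At an unadjusted p under 0.05, 1 of 12 (Dnajb11) was higher in ICH than in sham, beside 7.88% of all genes. In feb against ICH, 3 of 12 (Dnajb11, Pdia6 and Manf) were lower, beside 6.16% of all genes. Both comparisons use the same ICH mice, in which mouse 2 was high. Without ICH mouse 2, 10 of 12 genes were still lower in feb than in ICH, with a median of -0.14 and 2 genes (Dnajb11 and Pdia6) at an unadjusted p under 0.05, while the median of ICH against sham was 0.03. Against sham, 10 of 12 were lower in feb as well, with a median of -0.14 and none at an unadjusted p under 0.05. At equal medians, 12 of 12 were lower with a median of -0.25, and Hsp90b1 (-0.35) and Calr (-0.51) passed an unadjusted p of 0.05. Both also passed it with upper-quartile scaling, in voom on recovered reads and without sham mouse 2, where Pdia4 (-0.44) joined them, Hsp90b1 with quantile normalization (-0.18) and Calr without feb mouse 2 (-0.53). Markers of other cells were lower in feb than in ICH without overlap too. All 6 microglial markers were lower, by 0.68 in their mean and with a summed level of 39.0 to 50.4 RPKM in feb beside 51.1 to 84.7 RPKM in ICH. So were all 8 choroid plexus markers (summed level 30.6 to 88.4 RPKM beside 458 to 967 RPKM) and 4 of 5 red blood cell markers (17.1 to 21.6 RPKM beside 26.7 to 123.8 RPKM). None of these markers was at 0 in any mouse, and their part in the ER chaperone differences was not tested.

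Dnajb11 encodes ERdj3, a partner that hands unfolded protein to the ER chaperone BiP (chr16:22857845-22879634). It was at 17.4, 15.7 and 15.9 RPKM in sham, 17.8, 21.6 and 17.9 RPKM in ICH, and 15.5, 15.0 and 15.6 RPKM in feb. The ICH mice were the highest of the 9 mice and the feb mice the lowest, and no pair of groups overlapped. The difference was 0.22 ± 0.09 for ICH against sham (limma unadjusted p = 0.0404, adjusted p = 0.392) and -0.31 ± 0.09 for feb against ICH (limma unadjusted p = 0.00912, adjusted p = 0.316). The difference of feb against ICH kept an unadjusted p under 0.05 in all 18 alternatives, between -0.35 and -0.21. That of ICH against sham kept it in 8 of 18 and missed it without sham mouse 2 (0.19), sham mouse 3 (0.20) or ICH mouse 2 (0.13), at equal medians (0.11), with upper-quartile scaling (0.15), with quantile normalization (0.19), with only these groups in the fit and in eBayes without trend.

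Pdia6, the disulfide isomerase whose promoter is shown above (chr12:17266545-17284770), was at 23.5, 22.3 and 22.4 RPKM in sham, 24.5, 33.7 and 23.9 RPKM in ICH, and 22.3, 18.3 and 20.6 RPKM in feb. The order of the groups was that of Dnajb11, with no overlap in any pair, though feb mouse 1 came within rounding of the lower sham mice and ICH mouse 2 was far above its group. The feb difference from ICH was -0.41 ± 0.14 (limma unadjusted p = 0.0153, adjusted p = 0.357), and it missed an unadjusted p of 0.05 without feb mouse 2 (-0.33), while without ICH mouse 2 it was -0.25 and passed. Manf, a protein that BiP retains in the ER and that protects neurons (chr9:106838312-106891979), was at 11.1, 10.1 and 10.3 RPKM in sham, 10.6, 12.3 and 11.1 RPKM in ICH, and 10.2, 9.51 and 9.34 RPKM in feb. All feb mice were below all ICH mice, by -0.22 ± 0.08 (limma unadjusted p = 0.0283, adjusted p = 0.402), and the unadjusted p was 0.05 or more without ICH mouse 2 (-0.16), feb mouse 2 (-0.21) or feb mouse 3 (-0.20), as well as at equal medians (-0.23), with upper-quartile scaling (-0.20), with quantile normalization (-0.20) and in eBayes without trend. Pdia4, another disulfide isomerase, also had no overlap, at 24.3, 31.7 and 23.8 RPKM in ICH and 21.6, 23.4 and 18.1 RPKM in feb (difference -0.33 ± 0.17, limma unadjusted p = 0.0847, adjusted p = 0.497; -0.20 without ICH mouse 2).

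Hsp90b1, or GRP94, was the most abundant ER chaperone (chr10:86690209-86705509), at 216, 172 and 204 RPKM in sham, 172, 198 and 175 RPKM in ICH, and 171, 175 and 155 RPKM in feb. Sham mice 1 and 3 were above all others, and the largest of its differences was -0.24 ± 0.11 for feb against sham (limma unadjusted p = 0.0546, adjusted p = 0.591). Its exons overlap those of 3 other genes, the longest stretch being 415 bases of 1810014B01Rik on the opposite strand. Calr, or calreticulin, a chaperone for glycoproteins and a calcium store, followed the same order of groups at 175, 128 and 144 RPKM, 123.2, 164 and 119 RPKM, and 107, 135 and 97.3 RPKM, with -0.40 ± 0.18 for feb against sham (limma unadjusted p = 0.0516, adjusted p = 0.587). Hspa5, or BiP, the master chaperone that also holds the ER sensors inactive, was at 49.1, 43.9 and 46.3 RPKM in sham, 46.3, 59.0 and 45.7 RPKM in ICH, and 48.3, 39.0 and 41.6 RPKM in feb. Apart from ICH mouse 2, the ICH values of Hspa5 were within the sham range, and the differences were 0.11 ± 0.12 for ICH against sham and -0.22 ± 0.12 for feb against ICH. The latter was -0.10 without ICH mouse 2 and passed an unadjusted p of 0.05 without feb mouse 1 (-0.31).

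Sdf2l1, a partner of ERdj3, and Creld2 were highest in ICH mouse 2. Sdf2l1 was at 3.91, 2.94 and 3.56 RPKM in sham, 3.502, 7.14 and 3.55 RPKM in ICH, and 3.72, 2.82 and 2.54 RPKM in feb. Its difference of feb against ICH was -0.56 ± 0.28, the largest in size of the class, and passed an unadjusted p of 0.05 when ICH mouse 1 (-0.73), ICH mouse 3 (-0.72) or feb mouse 1 (-0.72) was left out, while without ICH mouse 2 it was -0.23. Creld2 was at 13.4, 9.93 and 9.55 RPKM in sham, 10.7, 15.0 and 11.8 RPKM in ICH, and 8.78, 10.8 and 9.15 RPKM in feb (feb against ICH -0.37 ± 0.17). This was -0.23 without ICH mouse 2 and passed an unadjusted p of 0.05 without ICH mouse 1 (-0.48), without feb mouse 2 (-0.46) or with only these groups in the fit. Hyou1, the nucleotide exchange factor of BiP, ranged only from 16.9 to 21.4 RPKM. The exceptions to the lower values in feb were Dnajb9, a BiP partner, and Herpud1, a component of ER-associated degradation. Dnajb9 was at 13.2, 8.71 and 12.6 RPKM and Herpud1 at 9.20, 6.57 and 8.01 RPKM in feb, so that feb mouse 2 was the lowest of all mice in both genes and feb mouse 1 the highest. Without feb mouse 2, Dnajb9 was higher in feb than in ICH (0.22) and in sham (0.25) at an unadjusted p under 0.05.

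Of the regulators, Atf4 differed at an unadjusted p under 0.05 in 1 comparison. Atf4 (chr15:80255184-80257540) was at 58.7, 50.7 and 54.99 RPKM in sham, 48.2, 47.9 and 55.04 RPKM in ICH, and 44.4, 47.0 and 43.4 RPKM in feb. The feb mice were the lowest of the 9 mice, below every sham and every ICH mouse, while sham and ICH overlapped. The difference of feb against sham was -0.29 ± 0.08 (limma unadjusted p = 0.00872, adjusted p = 0.565) and kept an unadjusted p under 0.05 in all 18 alternatives, between -0.40 and -0.23. That of feb against ICH was -0.16 ± 0.08 (limma unadjusted p = 0.0862, adjusted p = 0.499). Xbp1 was at 9.03, 9.19 and 9.33 RPKM in sham, 9.61, 10.2 and 8.09 RPKM in ICH, and 9.40, 8.98 and 7.89 RPKM in feb, with all groups overlapping and differences between -0.09 and 0.01. Gene totals do not separate spliced from unspliced Xbp1.

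Among the 8 ATF4 targets, 2 were higher and 6 lower in ICH than in sham, and 4 were higher and 4 lower in feb than in ICH. Ddit3 encodes CHOP, a factor of stress-induced cell death, and was the most abundant of them (chr10:127290774-127296288), at 17.3, 12.4 and 16.3 RPKM in sham, 9.94, 12.5 and 11.9 RPKM in ICH, and 12.4, 14.3 and 12.02 RPKM in feb. ICH mouse 2 and sham mouse 2 were level, and the other sham mice were above all ICH mice. The difference of ICH against sham was -0.41 ± 0.14 (limma unadjusted p = 0.0196, adjusted p = 0.363), and it missed an unadjusted p of 0.05 without sham mouse 1 (-0.32), sham mouse 3 (-0.36) or ICH mouse 1 (-0.31). Feb against sham, at -0.24, passed it without sham mouse 2 (-0.38). Asns, which makes asparagine, was at 13.1, 12.2 and 11.7 RPKM in sham, 11.6, 13.0 and 12.3 RPKM in ICH, and 11.9, 10.1 and 10.6 RPKM in feb (feb against ICH -0.18 ± 0.09, feb against sham -0.19 ± 0.09). Both passed an unadjusted p of 0.05 without feb mouse 1 (-0.25 and -0.26), and the second did so at equal medians (-0.31), with upper-quartile scaling (-0.24) and with quantile normalization (-0.21). Atf5, a factor that ATF4 and CHOP induce, was at 11.0 RPKM in ICH mouse 2 and between 4.55 and 6.999 RPKM in the other 8 mice. Its difference of feb against ICH was -0.46 ± 0.27, and -0.12 without ICH mouse 2. Chac1 ranged from 1.35 to 2.03 RPKM, Sesn2, a sensor of leucine, from 1.40 to 1.89 RPKM, and Trib3, a pseudokinase induced by CHOP, from 0.124 to 0.270 RPKM. Trib3 rested on 7 to 15 reads per mouse, and its differences, between -0.23 and -0.02 with an error of 0.25, were not detectable at this depth.

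Ddit4 and Ppp1r15a were higher in feb mice 1 and 3 than in all other mice, as was Dnajb9. Other genes, such as Hspa1b and Herpud1, were also higher in feb mice 1 and 3 than in feb mouse 2. Ddit4 (chr10:59949675-59951770) encodes REDD1, an inhibitor of the growth kinase mTORC1 that is induced by glucocorticoids and by hypoxia as well as by ATF4. It was at 5.69, 6.79 and 6.80 RPKM in sham, 9.26, 6.81 and 9.18 RPKM in ICH, and 12.5, 6.91 and 18.9 RPKM in feb. Every ICH and feb mouse was above every sham mouse, but ICH mouse 2 and feb mouse 2 only narrowly, while feb mice 1 and 3 were the highest of all. The difference of feb against sham was 0.87 ± 0.31 (limma unadjusted p = 0.0227, adjusted p = 0.565), and that of ICH against sham was 0.38 ± 0.31 (limma unadjusted p = 0.263, adjusted p = 0.613). The former missed an unadjusted p of 0.05 without sham mouse 1 (0.78), feb mouse 1 (0.83) or feb mouse 3 (0.53), and that of feb against ICH, at 0.49 ± 0.31, passed it without feb mouse 2 (0.87). ICH against sham passed it with only these groups in the fit (0.38). Without feb mouse 2, Ddit4 and Cryab were also the only ones of the 34 genes with a fold over 2 and an unadjusted p under 0.05 in feb against sham. Ppp1r15a, or GADD34, which ends the PERK response by restoring translation, was at 14.5, 10.2 and 14.7 RPKM in feb, beside 9.30 to 12.4 RPKM in the other groups (feb against ICH 0.34 ± 0.16, limma unadjusted p = 0.0592, adjusted p = 0.462). This passed an unadjusted p of 0.05 with upper-quartile scaling (0.36), with quantile normalization (0.36), with a replicate block (0.34), in voom on recovered reads (0.34) and without feb mouse 2 (0.51). Feb against sham, at 0.29, passed it without sham mouse 1 (0.40) or feb mouse 2 (0.46).

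A list of 10 glucocorticoid-responsive genes, none of them among the 34, took the same order of mice in the feb group. Its mean log2(RPKM + 0.1) was 1.83, 1.62 and 1.83 in sham, 2.62, 2.14 and 2.13 in ICH, and 3.53, 2.18 and 3.84 in feb, so feb mice 1 and 3 were the highest and feb mouse 2 was near the ICH mice. The summed level of the list ranged from 43.0 to 50.2 RPKM in sham, 60.9 to 80.4 RPKM in ICH and 59.0 to 163 RPKM in feb. The part of this program in the differences of Ddit4 and Ppp1r15a was not tested.

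**Figure D4:**
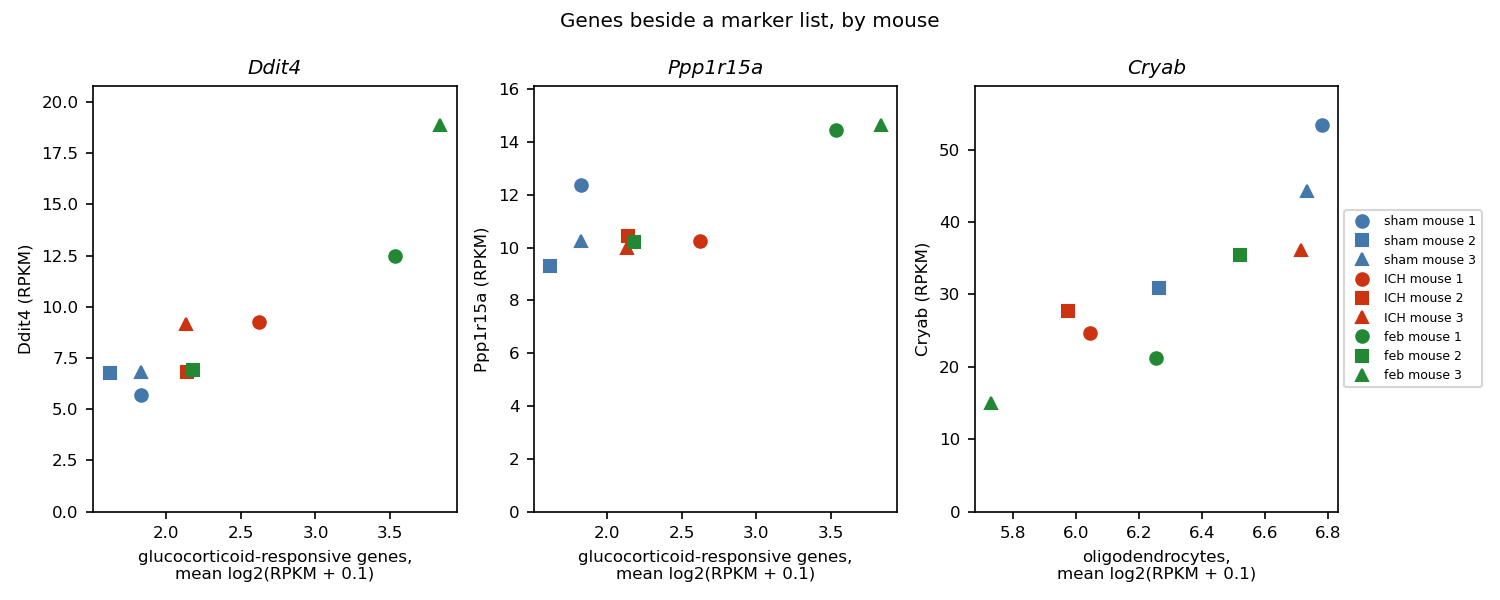
Ddit4 and Ppp1r15a (RPKM) against the mean log2(RPKM + 0.1) of 10 glucocorticoid-responsive genes, and Cryab (RPKM) against that of 6 oligodendrocyte markers, with 1 point per mouse. Feb mice 1 and 3, with list means of 3.53 and 3.84, lie at the upper right for Ddit4 and Ppp1r15a, and feb mouse 3, with an oligodendrocyte mean of 5.73, lies at the lower left for Cryab.

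The classes were compared by their mean log2(RPKM + 0.1) in each mouse, with no test. The ER chaperone mean was 4.54, 4.28 and 4.42 in sham, 4.40, 4.70 and 4.40 in ICH, and 4.36, 4.23 and 4.22 in feb, and it was lower in every feb mouse than in every ICH mouse, by 0.23 between the group means (-0.13 without ICH mouse 2). The cytosolic chaperone mean was 5.02, 4.48 and 4.66 in sham, 4.53, 4.90 and 4.51 in ICH, and 4.68, 4.63 and 4.48 in feb, with all groups overlapping and differences between -0.12 and -0.05. These turned with single mice: without sham mouse 1, ICH minus sham was 0.08 and feb minus sham 0.03, and without ICH mouse 2 feb minus ICH was 0.08. The ATF4 target mean differed by at most 0.03 in size between any groups, its sign turned without sham mouse 1 for ICH minus sham (0.02) and without feb mouse 3 for feb minus ICH (-0.03) and feb minus sham (-0.05), and from ICH to feb 4 of its 8 genes were higher and 4 were lower. The mean of the 2 regulators was lower in feb than in both other groups without overlap (by 0.12 and 0.18). By gene, this held for Atf4, while Xbp1 overlapped in all comparisons. The mean of the 2 mitochondrial chaperones was lower in feb than in sham without overlap (by 0.17), though Hspd1 and Hspe1 each overlapped there. How often means of 2 genes do not overlap among all genes was not counted.

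Taken within each mouse, the ER chaperone mean minus the cytosolic chaperone mean was -0.48, -0.19 and -0.25 in sham, -0.13, -0.20 and -0.11 in ICH, and -0.32, -0.41 and -0.26 in feb. The feb mice lay below all ICH mice, with -0.18 between the group means, and ICH mouse 2 was not apart here, since both classes were high in it. The sham group overlapped with both others and had the widest spread, with an SD of 0.155 beside 0.0507 in ICH and 0.0718 in feb. The ER chaperone mean minus the ATF4 target mean was 2.34, 2.62 and 2.40 in ICH and 2.34, 2.21 and 2.03 in feb, where the lowest ICH mouse and the highest feb mouse were level to within rounding.

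**Figure D5:**
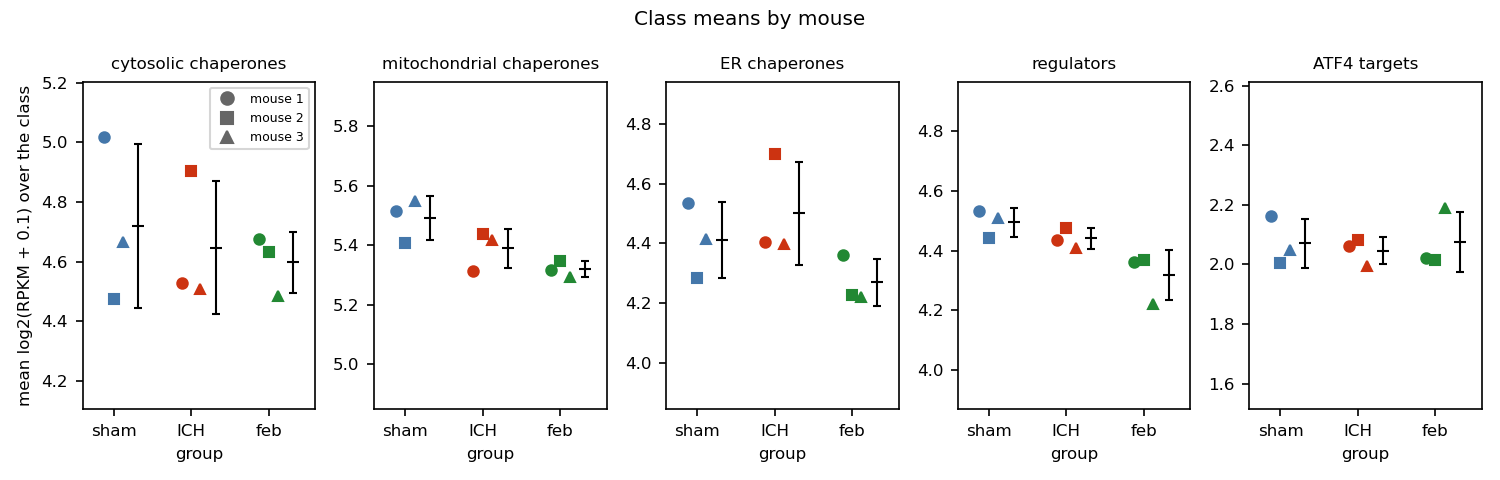
Mean log2(RPKM + 0.1) of each of the 5 classes in each mouse, with the group mean and SD (n = 3) as bars beside the points, all panels spanning the same height. The feb mice lie below the ICH mice for the ER chaperones (4.22 to 4.36 against 4.40 to 4.70), while the groups overlap for the cytosolic chaperones and the ATF4 targets.

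Further genes of the same pathways, 152 in number, were read from the same fit. Of 48 other heat shock and cytosolic chaperone genes, 4 were higher and 2 lower in ICH than in sham at an unadjusted p under 0.05, 1 was higher and 4 lower in feb than in ICH, and 3 were higher and 6 lower in feb than in sham. As shares of 48 these stand beside 7.88% and 4.42%, 4.90% and 6.16%, and 5.63% and 2.90% of all genes. Of 57 other ER folding, degradation and sensor genes the counts were 4 and 4, 1 and 5, and 0 and 3 in the same order, and of 46 tested genes of the ATF4 and amino acid response they were 2 and 3, 1 and 3, and 2 and 2. The other ER genes were lower in feb than in ICH for 45 of 57, with a median of -0.08, and the other heat shock genes for 36 of 48, with a median of -0.08, where 15153 of all 29025 genes were lower, with a median of -0.01. None of these genes had an adjusted p under 0.05 in any comparison.

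Calls by p and fold were limited to Hspb3 and Fkbp5 among these genes. Hspb3, a small heat shock protein of muscle and nerve, was at 0.217, 0.294 and 0.683 RPKM in sham, 1.67, 1.22 and 1.17 RPKM in ICH, and 0.629, 0.304 and 0.389 RPKM in feb, and every ICH mouse was above all other mice. The differences were 1.64 ± 0.37 for ICH against sham (limma unadjusted p = 0.00185, adjusted p = 0.323) and -1.46 ± 0.37 for feb against ICH (limma unadjusted p = 0.00381, adjusted p = 0.274), on 5 to 32 reads per mouse. Dnajb5, a cytosolic HSP40, took the same pattern at a higher level, with 7.26, 10.6 and 8.13 RPKM in sham, 14.1, 14.6 and 13.0 RPKM in ICH, and 8.95, 9.22 and 9.76 RPKM in feb. Its differences were 0.69 ± 0.13 (limma unadjusted p = 0.000651, adjusted p = 0.277) and -0.57 ± 0.13 (limma unadjusted p = 0.00218, adjusted p = 0.252). Lists of 10 immediate early genes and of 6 cortical neuron markers were also higher in all ICH mice than in all sham mice, by 0.69 and 1.61, and lower in all feb mice than in all ICH mice, by 0.61 and 0.83, and their part in these differences was not tested. Fkbp5, an HSP90 partner and a glucocorticoid-responsive gene, was at 16.0, 4.44 and 21.3 RPKM in feb beside 3.67 to 7.26 RPKM in the other mice (feb against sham 1.46 ± 0.49, limma unadjusted p = 0.017, adjusted p = 0.565).

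The remaining genes with the lowest p-values differed by less than a factor of 2. In ICH against sham these were Hsf2, a heat shock factor (0.30, unadjusted p = 0.0177), the ER sensor Atf6 (0.51, unadjusted p = 0.0112), the disulfide isomerase Pdia5 (0.57, unadjusted p = 0.0126), Rpn1 of the glycosylation complex (-0.24, unadjusted p = 0.0152), the amino acid transporters Slc7a5 (0.34, unadjusted p = 0.0104) and Slc6a9 (-0.53, unadjusted p = 0.0339), and the leucyl-tRNA synthetase Lars (0.20, unadjusted p = 0.0231), all by limma. In feb against ICH they were Dnajc7, an HSP70 and HSP90 partner (0.25, unadjusted p = 0.00565), Os9 of ER-associated degradation (0.30, unadjusted p = 0.01), the translocon subunit Sec61a1 (-0.34, unadjusted p = 0.0137), the signal peptidase subunit Spcs3 (-0.40, unadjusted p = 0.0148), Lars (-0.19, unadjusted p = 0.0291), the cystine transporter Slc7a11 (-0.55, unadjusted p = 0.0437) and Pck2 (0.32, unadjusted p = 0.0445), again by limma. In feb against sham they were the HSP90 partner Chordc1 (-0.30, unadjusted p = 0.0246), Bag1 (-0.30, unadjusted p = 0.0266), the ER membrane protein Tmbim6 (-0.24, unadjusted p = 0.00411), Rpn1 (-0.26, unadjusted p = 0.0101), Sec11c (-0.47, unadjusted p = 0.0394), the aminotransferase Gpt2 (0.44, unadjusted p = 0.00931), the transcription factor Cebpb (0.70, unadjusted p = 0.0277) and the methionyl-tRNA synthetase Mars (-0.20, unadjusted p = 0.0386). Their limma adjusted p-values ran from 0.294 for Dnajc7 to 0.582 for Mars and Sec11c.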

How the data were processed

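RNA of mouse brain was measured in 3 sham, 3 ICH and 3 feb mice. The authors depleted rRNA, tagged cDNA with UMIs, collapsed reads by UMI and took GRCm38 as the genome, with counting over exons by featureCounts (Subread 1.5.1), and deposited RPKM values, which are already scaled for depth and exon length. The annotation release and strand setting are not given in the sources used here. The kit marks strand. In each mouse 100% of values were whole multiples of 1 read (tolerance 0.05), from which reads were recovered. Pairs of mice within a group differed beyond sampling noise (chi-square per gene 13.9 to 48.5).

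Differences were tested with limma 3.58.1 (R 4.3.3; eBayes with trend) on log2(RPKM + 0.1) over 29025 genes, with all 9 mice in the same fit and Benjamini-Hochberg adjustment over all of them. Such differences understate the change of low genes. The fit was tested on simulated data. The 34 genes, the other pathway lists and the marker lists were chosen with earlier results of these data known. All 34 genes are named. Values per mouse are given for genes with an unadjusted p under 0.05 in any comparison and for the most abundant gene of each class, and for others (such as Hspb1, Hspa1b, Sdf2l1 and Dnajb5) chosen after their values were seen. Further pathway genes are named where called, and for the 3 lowest p-values per list and comparison. Reads shared with copies were judged by 150-base windows of GENCODE M21 transcripts. Gene positions were those deposited with the table, and 30 of the 34 genes had the same ends in GENCODE. Python 3.11.15 with pandas 2.3.3 and matplotlib 3.10.9 made tables and plots. Alternatives were pseudocounts of 1 and 0.01, no filter or a minimum of 1 RPKM, equal medians, upper-quartile scaling, quantile normalization, only the groups compared, eBayes without trend, a replicate block, voom on recovered reads, and each mouse left out. The last alternative, chosen after seeing the data, left out both ICH mouse 2 and sham mouse 1.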

Additional observations from a re-analysis of the deposited data

How the results depend on the processing

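Per comparison 18 alternatives were run, and in 57 fits none of the 34 genes had an adjusted p under 0.05 (the lowest was 0.0981, for Ddit3 without sham mouse 2). The directions of the 17 gene differences followed in this way were kept throughout. Outside these, directions turned for many genes. In ICH against sham, 17 of the 34 genes were higher, but 8 at equal medians and 11 with upper-quartile scaling. Examples are Hspb1 without ICH mouse 2 (-0.66) and Hsp90ab1 with quantile normalization (0.02). The count of the 34 genes at an unadjusted p under 0.05 in ICH against sham was 3, and 0 to 4 with a mouse left out. In feb against ICH it was 4, but 2 at equal medians, 2 in eBayes without trend, and 2 to 7 with a mouse left out. In feb against sham it was 4, but 7 at equal medians, 7 with upper-quartile scaling, and 1 to 9 with a mouse left out. Among the 18, 1 alternative was chosen after seeing the data and left out both ICH mouse 2 and sham mouse 1. It gave 0 in ICH against sham, 3 in feb against ICH and 2 in feb against sham. In it, Hspb1 turned from -0.32 to 0.46 in feb against ICH (limma unadjusted p = 0.0465). Calls by p and fold in feb against sham were 0, but 1 at equal medians and 0 to 2 with a mouse left out.

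Of 225 class differences, 11 moved by over 1 SD. At equal medians, ICH minus sham became -0.21 for mitochondrial chaperones (from -0.10), -0.17 for regulators (from -0.05) and -0.13 for ATF4 targets (from -0.02), and feb minus sham became -0.29 for mitochondrial chaperones (from -0.17), -0.26 for ER chaperones (from -0.14), -0.29 for regulators (from -0.18) and -0.11 for ATF4 targets (from 0.00). With upper-quartile scaling, ICH minus sham became -0.17 for mitochondrial chaperones, -0.13 for regulators and -0.093 for ATF4 targets, and with quantile normalization -0.10 for ATF4 targets. These scalings shift all genes, and other causes were not tested.

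Replicate numbers are shared by the groups but nothing ties the numbers to animals, and deviations of same-numbered mice correlated between -0.127 and 0.0194. With a replicate block, the counts at an unadjusted p under 0.05 were 2, 3 and 3 in the order above, without Dnajb11 in ICH against sham (unadjusted p = 0.0753), Hspd1 (unadjusted p = 0.0768), Manf (unadjusted p = 0.0586) and Hspe1 in feb against sham (unadjusted p = 0.0828), and with Ppp1r15a added in feb against ICH (unadjusted p = 0.0444), all by limma. Among all genes, the block gave 1740 higher and 1031 lower in ICH against sham at an unadjusted p under 0.05. In feb against ICH it gave 1260 and 1400, and in feb against sham 1271 and 593. With 3 mice a group and only 7 to 15 reads for Trib3, small differences were beyond reach.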
